A study of Homo sapiens with 2 samples.

Results

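The genes described here are 10 negative regulators of the RAS-MAPK pathway: SPRED1 and SPRED2, the Sprouty genes SPRY1, SPRY2 and SPRY4, and the dual-specificity phosphatase genes DUSP4, DUSP5, DUSP6, DUSP7 and DUSP10. They were chosen from earlier results of the same 2 arrays, by their log2 differences between the conditions, so every difference below is a description and none was tested. The arrays carry 21 probe sets that the platform annotation assigns to 1 of these genes alone, out of 41097 single-gene probe sets for 19775 genes. HEK-293T, an established human line of embryonic kidney origin with the SV40 large T antigen, was grown in serum-containing medium and transfected by lipofectamine 2000 with a synthetic mimic at 50 nM for 48 h. One sample received the miR-194 mimic and the other a negative control mimic, so both groups share the line, the reagent and the dose, and each is represented by 1 Affymetrix 3' expression array. With 1 array per mimic, differences between cultures, labelling reactions and arrays cannot be told apart from those between mimics.

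In this pathway, receptor tyrosine kinases load RAS with GTP, and RAS then activates the kinases RAF, MEK and ERK in turn. Active ERK induces its own inhibitors, which close a feedback loop: SPRED and Sprouty proteins act upstream, at the level of receptors, RAS and RAF, while dual-specificity phosphatases remove the activating phosphates from ERK or its relatives p38 and JNK. In cultured cells the transcripts of several of these inhibitors, though not of all, are widely used as a readout of ERK output.

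The supplied agent is the miRNA miR-194, a 22-base RNA that pairs with target transcripts through its seed, bases 2 to 8. The labels do not say which arm the mimic carries, so both mature arms listed by RefSeq (GRCh38.p14) are shown, with the seed in capitals. The 5p arm is encoded with the same letters by both MIR194-1 at chr1:220118206-220118227 and MIR194-2 at chr11:64891404-64891425, and the 3p arm is listed for MIR194-2 at chr11:64891368-64891389, all on the minus strand.
hsa-miR-194-5p: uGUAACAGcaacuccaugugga
hsa-miR-194-3p: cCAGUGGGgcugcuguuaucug
The seeds of the arms differ. Target sites in the feedback transcripts were not analysed here.

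Signals are given on the linear scale, as 2 to the power of the deposited log2 value, in arbitrary array units. The median of all probe sets other than array controls was taken as the floor of each array, at signals of 68.6 (control mimic) and 66.8 (miR-194 mimic). Kept probe sets are those whose floored log2 signals averaged more than the 2 floors did, and a difference with 1 signal under the floor is a bound, written "at least". Of the 21 probe sets, 13 were kept, 10 of them above the floor on both arrays. They cover 9 of the 10 genes, and DUSP6 had none. The ± after a log2 difference is the probe set error, the SD of the gap between 2 probe sets of a gene over the square root of 2. It describes 1 probe set, and 2 probe sets typically disagree by more. This error stands in for a replicate spread and leaves out variation between cultures.

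**Figure D1:**
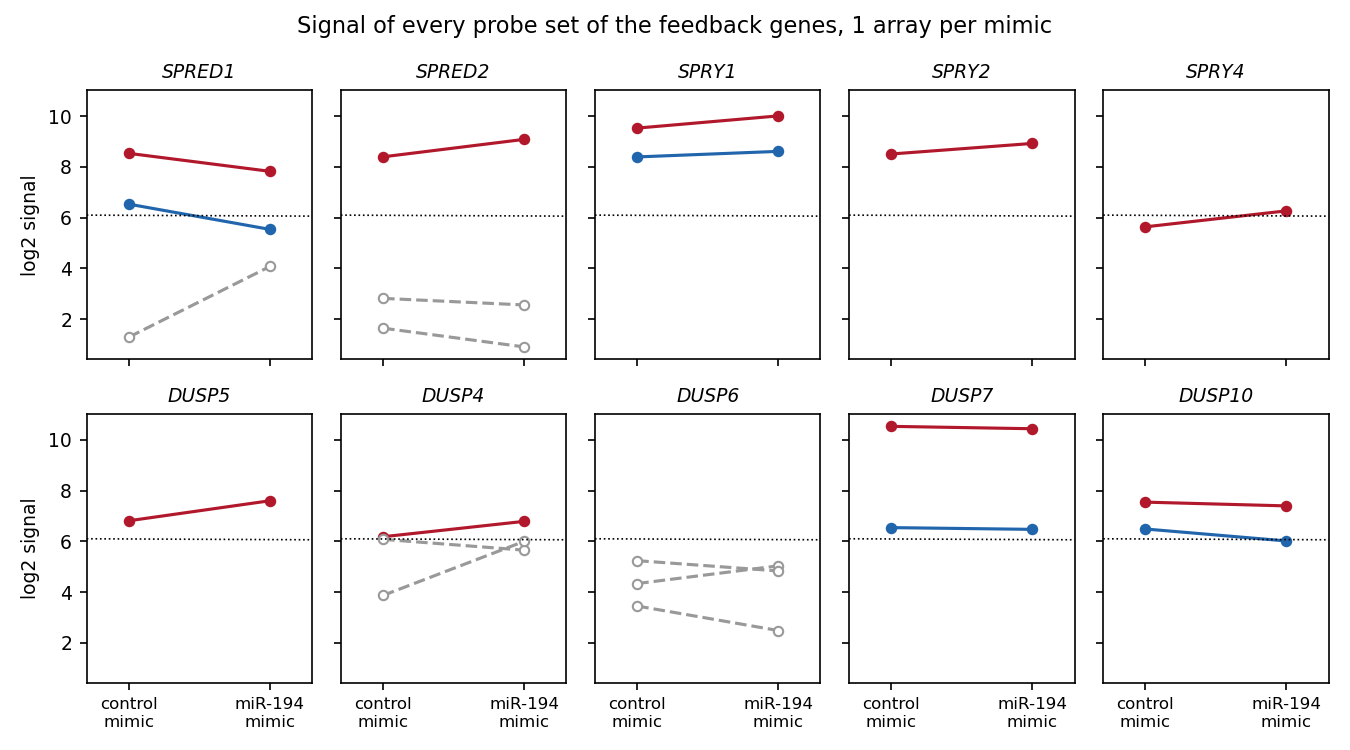
Deposited log2 signal of all 21 probe sets on the control mimic and miR-194 mimic arrays, 1 panel per gene; red marks the probe set that stands for the gene, blue other kept probe sets, grey open points probe sets that were not kept, and the dotted line the floor. The kept SPRED1 lines slope down, those of SPRED2, SPRY1, SPRY2, DUSP5 and DUSP4 slope up, and all 3 DUSP6 probe sets lie under the floor.

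The SPRED genes lay on opposite sides of 0. SPRED1, whose product brings the RAS GTPase-activating protein neurofibromin to the plasma membrane, had signals of 370 (control mimic) and 227 (miR-194 mimic) on its brightest probe set, 226837_at. This is a log2 difference of -0.71 ± 0.38, or 1.63-fold lower with miR-194. Its second kept probe set, 235074_at, read 92.6 and 46.5, at least 1.39-fold lower because the second value is under the floor. It was kept only through the control array, so its sign was set by the filter. The third, 244439_at, read 2.46 and 16.9, both under the floor, and was not kept.

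SPRED2 encodes the closest relative of SPRED1, with the same membrane-targeting and RAF-restraining role. Its single kept probe set, 212458_at, read 337 (control mimic) and 543 (miR-194), a log2 difference of 0.69 ± 0.38 and 1.61-fold higher. The other SPRED2 probe sets, 212466_at and 214026_s_at, read at most 7.08 on either array, so they carry no second measurement of the gene. SPRED1 and SPRED2 therefore each passed 1.5-fold, in opposite directions, and each by less than 2 probe set errors. With a mean over every single-gene probe set and no floor, both signs turned, to 0.36 for SPRED1 and -0.10 for SPRED2, since that mean takes in the probe sets under the floor.

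SPRY1 and SPRY2 were higher with miR-194 by less than 1.5-fold, and SPRY4 had only a bound. SPRY1, a brake on receptor signalling that limits RET activity in kidney development, read 739 and 1030 on 212558_at, a log2 difference of 0.48 ± 0.31 (1.39-fold). Its second probe set, 230212_at, was also higher with miR-194, at 336 and 391, but its difference of 0.22 was inside the error of 0.38. SPRY2, which binds the adaptor GRB2 and the ubiquitin ligase CBL, read 364 and 486 on its only probe set, 204011_at, a log2 difference of 0.42 ± 0.38 (1.33-fold). The differences of SPRY1 on its brighter probe set and of SPRY2 are 1.55 and 1.08 times their errors.

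SPRY4, which can restrain RAF without acting on RAS, was close to the limit of measurement. Its only probe set, 221489_s_at, read 49.9 on the control array, under the floor, and 77.2 after miR-194, so the gene was at least 1.12-fold higher. It was kept only through the miR-194 array, so its sign was set by the filter. Without a floor the log2 difference would be 0.63. This probe set is of a type whose probes match more than 1 transcript. The noncoding RNA SPRY4-IT1 lies within the SPRY4 gene in the RefSeq annotation and has 2 probe sets of its own. They read 15.5 and 7.08 on 1566967_at and 8.42 and 4.17 on 1566968_at, control first, all under the floor.

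Among the phosphatases, the nuclear enzymes DUSP5 and DUSP4 were higher by 1.5-fold or more, DUSP7 and DUSP10 were not, and DUSP6 was not measurable. DUSP5, which is nuclear and specific for ERK, read 112.3 and 193.9 on its only probe set, 209457_at. The log2 difference was 0.79 ± 0.38, 1.73-fold, the largest of the feedback genes in either direction and 2.05 times its error. DUSP4, a nuclear phosphatase of ERK and JNK, read 72.6 and 110 on 204015_s_at, a log2 difference of 0.60 ± 0.38 (1.52-fold). Its control signal was barely over the floor of 68.6. The other DUSP4 probe sets did not pass the filter and disagreed in sign, with 67.7 and 50.3 on 204014_at against 14.6 and 63.9 on 226034_at.

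DUSP6, the cytoplasmic ERK phosphatase and a classical marker of ERK activity, was under the floor on all 3 probe sets and both arrays. Its probe sets read 20.2 and 32.8 (208891_at), 37.8 and 28.5 (208892_s_at) and 11.0 and 5.61 (208893_s_at), control first, with no common direction. No difference is given for it. DUSP6 overlaps the readthrough gene POC1B-DUSP6 in the RefSeq annotation, which has no single-gene probe set here.

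DUSP7, the other cytoplasmic ERK phosphatase of the set, was nearly level. It read 1477 and 1385 on 213848_at, a log2 difference of -0.09 ± 0.31, and 93.1 and 88.8 on 214793_at, a difference of -0.07. DUSP10, which acts on p38 and JNK rather than ERK, read 187 and 168 on 221563_at, a log2 difference of -0.15 ± 0.38. On its second probe set, 215501_s_at, it read 89.7 and 64.7, at least 1.34-fold lower. The brighter value lies inside its error, and the second is a bound whose sign was set by the filter.

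**Figure D2:**
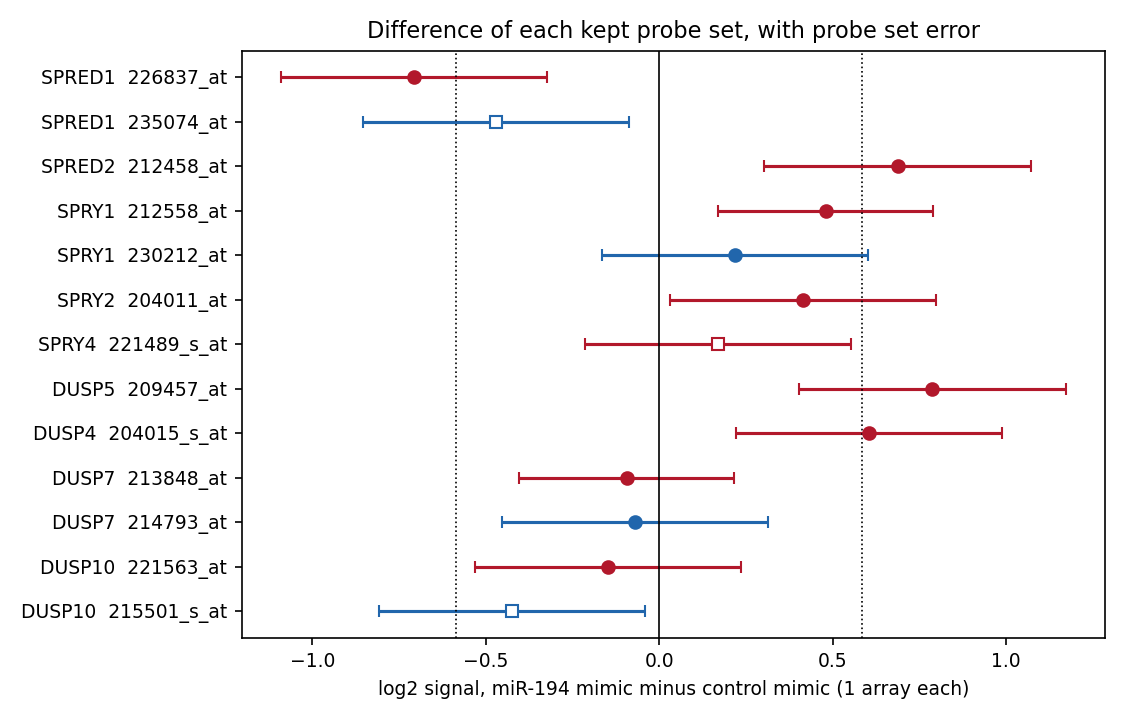
Difference in log2 signal, miR-194 mimic minus control mimic, for the 13 kept probe sets; red marks the probe set that stands for its gene and blue a further one, open squares are bounds with 1 signal under the floor, bars are the probe set error and dotted lines mark 1.5-fold. SPRED2, DUSP5 and DUSP4 lie past 1.5-fold on the right and the brighter SPRED1 probe set on the left, and the bars of SPRY4, the fainter SPRY1 probe set, both DUSP7 probe sets and the brighter DUSP10 probe set cross 0.

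By gene, on the brightest kept probe set, 3 of the 9 kept feedback genes (SPRED2, DUSP5, DUSP4) were higher by 1.5-fold or more and 1 (SPRED1) was lower. Over all 12769 kept genes, 3.02% were higher and 7.36% were lower by that size. By probe set, 3 of the 13 were higher and 1 was lower, beside 5.08% and 7.99% of the 24226 kept single-gene probe sets. Because the genes were selected on this same contrast, nothing is read from these shares. The median log2 difference was 0.42 over the 9 genes, with SPRY4 entering as a bound, and 0.02 over all kept genes. This comparison shares the same selection, and nothing is read from it. No feedback gene differed by 2-fold. Of the 4 genes with 2 kept probe sets, SPRY1 and DUSP7 had both above the floor on both arrays. For SPRED1 and DUSP10 the second was kept only through the control array, so the filter itself set its sign.

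The 9 genes also differ in their place among genes of like signal. Of the kept genes in the low signal class (mean log2 up to 9.23), 2.39% had a higher difference than DUSP5, 3.58% a higher one than SPRED2, 5.07% a higher one than DUSP4 and 11.8% a higher one than SPRY2. In the same class 5.55% were lower than SPRED1. Also in the low class, 30.8% lay above SPRY4, a bound, and 64.2% above DUSP10. In the middle class (up to 10.9), 2.35% lay above SPRY1 and 61.2% above DUSP7. These ranks describe 2 arrays and share the choice of the genes.

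**Figure D3:**
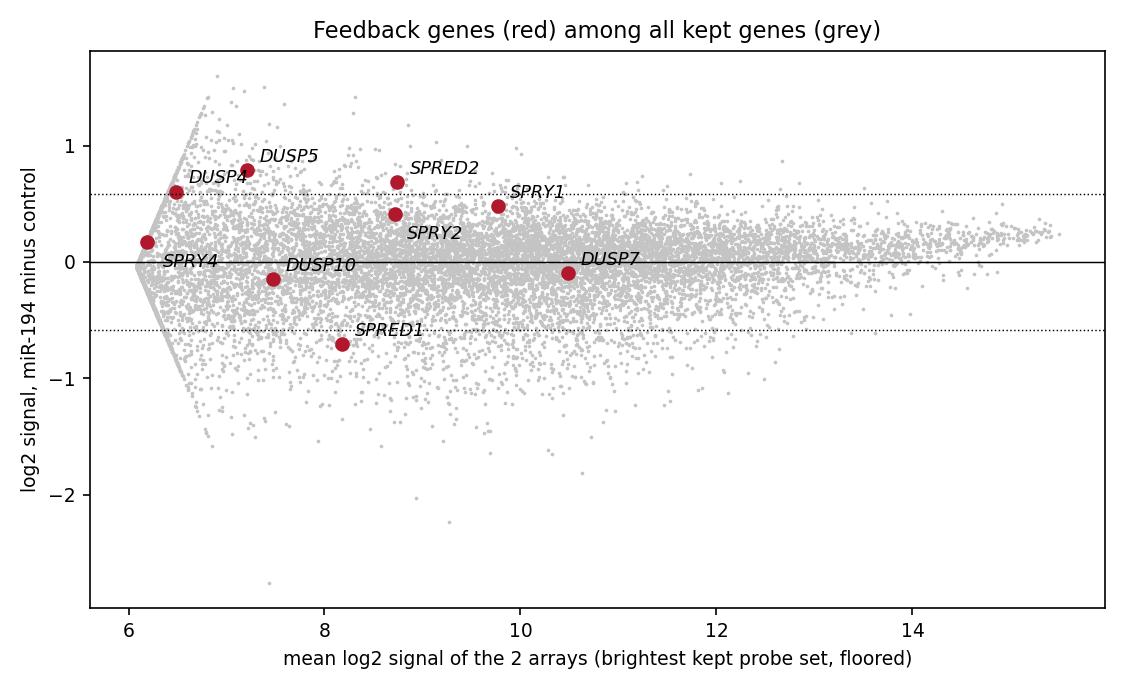
Log2 difference, miR-194 mimic minus control mimic, against mean floored log2 signal for the 12769 kept genes (grey) and the 9 kept feedback genes (red), with dotted lines at 1.5-fold. The slanted edges at low signal are set by the floor; DUSP4 and SPRY4 lie beside that edge, and DUSP7 has the highest signal of the 9.

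Genomic length moved with the differences over the whole array: across the 12757 kept genes with a RefSeq length, which are not independent replicates, Spearman's rho was -0.22. SPRED1 and SPRED2 are both long, at 104 and 125 kb, and fall in the longest of 5 length classes, whose median log2 difference was -0.11. In that class 14.2% of genes were lower and 1.76% higher by 1.5-fold. SPRED1 thus lay on the common side of its class and SPRED2 on the rare one. DUSP5 (13.6 kb) and DUSP4 (17.6 kb) belong to the second shortest class, with a median of 0.07 and 3.72% of genes higher. SPRY1 (6.97 kb), SPRY2 (5.15 kb) and DUSP7 (7.65 kb) belong to the shortest, with a median of 0.09. The part of length in the members' values was not tested.

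On the brightest kept probe set, none of the other kept genes of the same families passed 1.5-fold. Of SPRED3, SPRY3 and the remaining MAP kinase phosphatases DUSP1, DUSP2, DUSP8, DUSP9 and DUSP16, 6 of 7 were kept, 0 passed 1.5-fold in either direction and the median was -0.11. SPRED3, the remaining SPRED gene, was lowest at -0.44 ± 0.38, with signals of 114 and 84.1, and DUSP16, a JNK and p38 phosphatase, was highest at 0.02 ± 0.38. Of 10 atypical dual-specificity phosphatases, which lack the MAP kinase docking domain, 8 were kept and 0 passed 1.5-fold (median 0.11), from DUSP28 at -0.45 ± 0.38 to DUSP18 at 0.36 ± 0.38. Further kept probe sets did pass 1.5-fold. DUSP16 was at 0.74 on 224336_s_at. With 1 signal under the floor, DUSP8 was at least 1.73-fold lower on 238594_x_at and DUSP18 at least 1.59-fold higher on 1553701_a_at.

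Upstream, on the brightest probe set, 1 of 12 kept receptor genes was higher and 2 were lower by 1.5-fold. Over all kept genes 3.02% were higher and 7.36% lower, and the counts of each list below stand beside these shares. FGFR3, a receptor that feeds this pathway, went from 2608 to 4395, a log2 difference of 0.75 ± 0.27, on a probe set type that can match more than 1 transcript. ERBB3 was at least 2.43-fold lower, on a probe set type that can match more than 1 transcript, and ERBB4 at least 1.59-fold lower. Each of these probe sets was under the floor with miR-194 and kept only through the control array, so the filter set its sign. Further kept probe sets of ERBB3 were at least 1.15-fold and 1.41-fold lower, and 214053_at of ERBB4 read 95.2 and 69.9. Among adaptors and exchange factors 0 of 10 kept genes were higher and 2 were lower. These were SOS2, a RAS exchange factor, from 633 to 335 (-0.92 ± 0.38), and the docking protein GAB2, from 171 to 106 (-0.68 ± 0.38). The second kept SOS2 probe set, 217576_x_at, was at least 1.19-fold lower, its sign set by the filter. GAB2 had a single probe set, of a type that can match more than 1 transcript. Further probe sets of PTPN11, GAB1 and SHC1 passed 1.5-fold where the brightest did not. PTPN11, a phosphatase that promotes RAS activation, was at 0.93 and 0.89 on them against -0.12. GAB1, another docking protein, was at -0.61 and -0.72 against -0.24. SHC1 was at least 1.66-fold higher on 201469_s_at, from under the floor, against a log2 difference of 0.07. The highest on its brightest probe set was RASGRP1, under the floor with the control mimic and at least 1.29-fold higher, its sign set by the filter.

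The RAS, RAF, MEK and ERK list had a named probe set for 11 of its 16 genes, all of them kept. None passed 1.5-fold on its brightest probe set (median -0.10). A further MAP2K2 probe set, 213490_s_at, did, from 307 to 504 (0.71), against 0.05 on the brightest. SHOC2, a scaffold that promotes RAF activation, was lowest at -0.42 ± 0.31. RRAS was at least 1.44-fold higher from under the floor, its sign set by the filter. Of 13 kept genes for other inhibitors and binding partners, RASA2, a RAS GTPase-activating protein, alone passed 1.5-fold. It went from 1010 to 573 (-0.82 ± 0.31) on its brightest probe set and from 372 to 207 on the second, while the third read 106 and 116. SIAH2, a ubiquitin ligase that targets Sprouty proteins, was highest at 0.35 ± 0.38.

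Downstream, 11 of 15 ERK-driven transcripts were kept, with 1 higher, 0 lower and a median of 0.18. On the brightest probe set, EGR1, an immediate early transcription factor, was the one past 1.5-fold, from 184 to 284 (0.62 ± 0.38). Its second probe set was at 0.34. CCND1, cyclin D1, was lowest, from 926 to 673 (-0.46 ± 0.31). ETV4, ETV5, FOS and FOSL1, which respond to ERK like DUSP6, were under the filter as DUSP6 was. Of 8 kept p38 and JNK pathway kinases, MAPK11 was at least 2.16-fold higher from under the floor, its sign set by the filter. The MAPK11 probe set is also of a type that can match more than 1 transcript. On the brightest probe set 0 were lower by 1.5-fold (median 0.11), with MAPK10 lowest at -0.03 ± 0.38. Over all 8 lists outside the members, 3 of 79 kept genes were higher and 5 were lower, with a median of 0.03. Over all kept genes 3.02% were higher and 7.36% lower, with a median of 0.02. MAPK11, ERBB3 and ERBB4 enter these counts as bounds, and nothing is read from them. RASGRP1, RRAS and MAPK13 enter the median over the lists as bounds too. That median, 0.03, is the value of MAPK13. MAPK13 read 45.2, under the floor, and 70.0, control first, so the filter set its sign. The median of the p38 and JNK kinases also takes in the MAPK11 and MAPK13 bounds. The feedback genes were not tested against these lists.

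**Figure D4:**
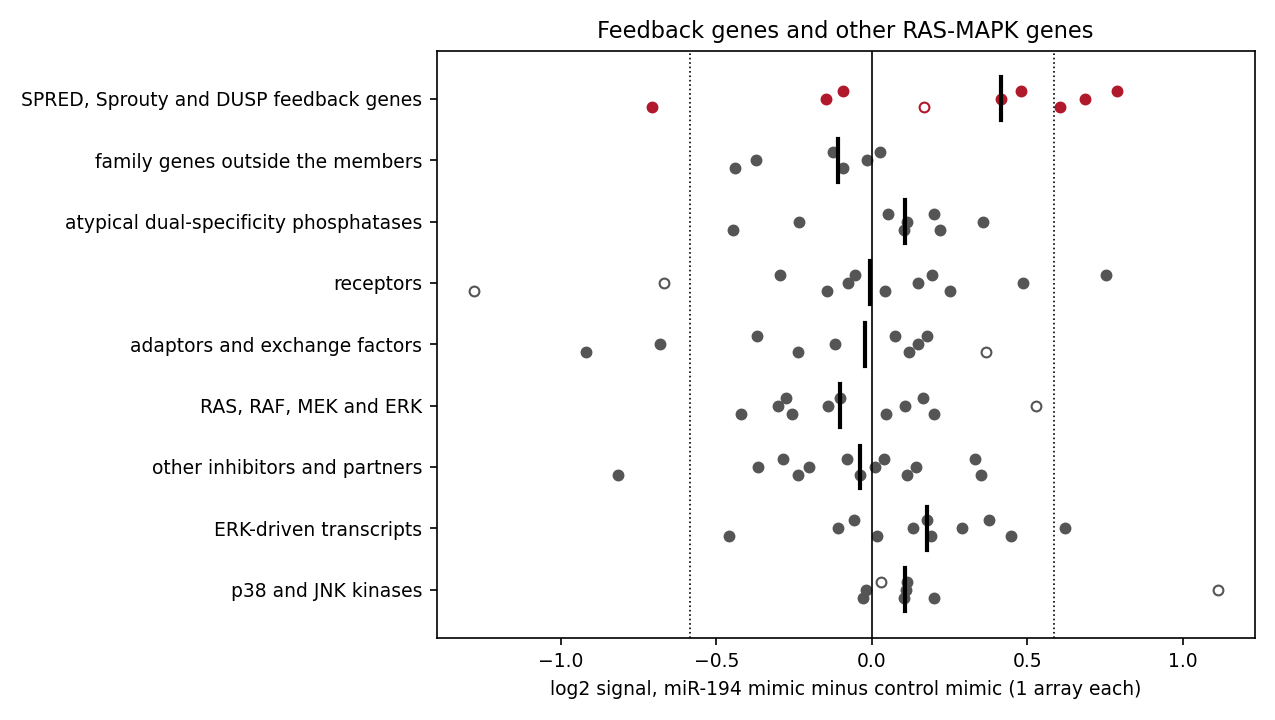
Log2 difference of each kept gene, miR-194 mimic minus control mimic, for the feedback genes (red) and 8 lists of other RAS-MAPK genes (grey); open points are bounds, black bars are medians and dotted lines mark 1.5-fold. The feedback genes run from -0.71 to 0.79 with a median of 0.42, and the medians of the other lists lie between -0.11 and 0.18. The feedback genes were chosen by these same differences, so nothing is read from the distance between the medians.

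The arrays were checked for cell identity with short marker lists. Of 8 markers of embryonic kidney lines 6 were kept, led by VIM at 15682 and 19013, while the epithelial marker EPCAM and LHX1 were under the filter. With the control mimic CDH2 read 1451, KRT18 1427, PAX8 373, KRT8 221 and PAX2 117. PAX8 was kept on 1 of 8 probe sets and PAX2 on 1 of 2. Of 8 mature nephron markers 3 were kept, with signals of at most 144, 0 of 4 hepatocyte markers and 3 of 5 fibroblast markers were kept, and PTPRC, the leukocyte antigen, was not kept. The kept fibroblast markers read 450 (COL1A1), 150 (COL3A1) and 77.4 (DCN) with the control mimic. COL1A1 was thus above PAX8, KRT8 and PAX2 on that array, so signal alone does not separate the kidney line and fibroblast lists. Of 5 blood cell markers 2 were kept, the globin HBB and CD3E. HBB went from 86.1 to 217 on its brightest probe set and was also higher on 211696_x_at, with its others under the floor on both arrays. CD3E read 45.2, under the floor, and 91.6, so it was kept only through the miR-194 array. In RNA of a whole culture, a change in a few cells and a smaller change in every cell cannot be told apart.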

How the data were processed

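RNA from each HEK-293T sample was hybridised to 1 Affymetrix array. The authors deposited a log2 signal for every probe set, made with MAS5 per the submitters' processing notes (no version given). The log base was checked on the values: after conversion to the linear scale, trimming 2% at either end left a mean of 500.1 for each array. Scanner files were not used here. The table holds 54675 probe sets; the platform annotation, with symbols updated through RefSeq, named 1 gene for 41097 of them, and 1801 with several genes were left out.

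Where several probe sets of a gene were kept, the one of highest mean floored signal stands for it. The probe set error compares the 2 brightest kept probe sets of each gene: it is the SD of the gap between their differences, over the square root of 2, in 3 signal classes (0.38, 0.31 and 0.27 from low to high). The fold of 1.5 replaces a test, because 1 array per group gives no replicate spread, and no likeness between genes can be measured over 2 arrays. The members and lists were chosen with earlier results of these data known. Named are all members and, of each other pathway list, every kept gene past 1.5-fold and the highest and lowest. Alternatives were 3 scalings, 3 floors, 3 ways to represent a gene and a 2-fold threshold. The steps were tested on simulated data. Python 3.11.15, pandas 2.3.3, NumPy 2.4.6 and statsmodels 0.14.6 were used.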

Additional observations from a re-analysis of the deposited data

How the results depend on the processing

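The median difference of the feedback genes stayed between 0.35 and 0.48 under the 9 alternatives that could change it. With a 2-fold threshold, 0 feedback genes were higher and 0 lower, beside 57 and 181 of all kept genes. With a floor at the 75th percentile 4 feedback genes were kept, 0 higher and 0 lower (all genes 59 and 489), because SPRED1, DUSP4 and DUSP5 lay under it and SPRED2 became a bound of 0.45. With the mean over every single-gene probe set and no floor, 0 were lower and the signs of SPRED1 (0.36) and SPRED2 (-0.10) turned. Of 74 single-gene values under the alternatives, 69 stayed within the probe set error of the reported one, 3 moved past it (all SPRY4, to 0.63, where its control signal was not floored) and 2 reversed. Over all genes, 385 were higher and 940 lower as reported, 1588 and 2386 with a floor at the 25th percentile, 670 and 1228 with no floor, and 2948 and 3589 with every probe set averaged. Under median scaling, quantile normalization and loess no feedback gene changed sign, and the same counts of 3 higher and 1 lower were found. Without probe sets of shared sequence 2 feedback genes were higher, since DUSP4 and SPRY4 have no kept probe set of another type. The number of arrays, 1 per mimic, limits the precision.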

Other observations

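Other pathway genes that were under 1.5-fold on their brightest probe set had 79 further kept probe sets, and 13 of these, from 11 genes, passed 1.5-fold (10 higher, 3 lower). Over all 24226 kept single-gene probe sets, 5.08% were higher and 7.99% lower by that size, and nothing is read from the counts. Of the 13, 9 were of types whose probes can match more than 1 transcript, as were 38 of the 79, and 4 were not. On 5 of the 13, 1 signal lay under the floor, so the difference is a bound whose sign was set by the filter. PTPN11 read 940 and 1795 on 209896_s_at and 197 and 365 on 209895_at, control first, beside 10493 and 9674 on its brightest probe set. GAB1 read 310 and 203 on 226002_at and 295 and 179 on 229114_at, beside 325 and 276. EPHA4, a receptor tyrosine kinase, read 207 and 342 on 228948_at, beside 885 and 820. DUSP16 read 172 and 287 on 224336_s_at, beside 515 and 524. The remaining probe sets past 1.5-fold were of DUSP18, FGFR1, SHC1, MAP2K2, MAPK8 and MAPK12 (higher) and of DUSP8 (lower). The rule for this count was chosen after the values were seen.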
